A study of Homo sapiens with 54 samples.

Results

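Parental SUM1315 cells exposed overnight to 4 µM cisplatin (CDDP) without olaparib were compared with untreated parental SUM1315 cells. SUM1315 is a triple negative breast cancer (TNBC) line with mutant BRCA1, and both groups were grown in the same serum-supplemented medium. The comparison holds 6 libraries of the 54 in the series, 3 labelled 4 uM cisplatin and 3 labelled Control, chosen by their titles. No library of either group received olaparib, an inhibitor of poly(ADP-ribose) polymerase. The other groups used here are parental SUM1315 treated with 2 µM CDDP, with 8 µM olaparib, or with 8 µM olaparib and 4 µM CDDP together, each with 3 libraries. All 9 SUM1315 groups, which include olaparib-resistant (OlaR) cells kept in 25 µM olaparib, shared 1 estimate of the spread. Nothing in the labels says that the 3 libraries of a group came from separate cultures, so p-values measure the spread between these libraries, which may be technical, and all cells belong to 1 cell line.

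CDDP is a platinum drug that forms adducts and crosslinks on DNA. Such lesions block replication forks and stop RNA polymerase within transcribed genes, and they are removed by nucleotide excision repair, by the Fanconi anemia pathway and by homologous recombination, the pathway in which BRCA1 works. DNA damage can also activate NF-κB, a transcription factor that drives cytokine genes and genes for inhibitors of cell death.

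Expression was measured by 3′ mRNA sequencing, in which each transcript gives reads from its 3′ end, so read counts do not scale with transcript length. Levels of different genes were ranked only to choose which genes to name. Values are adjusted read counts, which are read counts per gene that the authors scaled to a common library size. The 6 libraries held 5420890 to 6607512 reads, and 15182 to 17637 genes had at least 1 read. Of 27470 genes in the table, 13133 reached an adjusted read count of 10 in at least 3 of the 27 SUM1315 libraries and were tested. A gene rose or fell when its fold change was at least 2 and its Benjamini-Hochberg adjusted p was at most 0.05 in limma.

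Markers of the line were examined in both groups. VIM, the mesenchymal filament protein, was at 11876, 12484 and 11574 adjusted read counts in control and at 11916, 11453 and 11727 with CDDP. The epithelial adhesion genes EPCAM and CDH1 held at most 5 reads and 1 read in any of the 6 libraries. Of 9 epithelial markers 6 were nevertheless tested, with KRT17 the highest at 1534 ± 68.8 in control. The hormone and HER2 receptor genes PGR, ESR1 and ERBB2 held at most 3, 25 and 33 reads in any of these libraries, and the 5 blood cell markers examined held at most 5. Of 6 fibroblast markers 3 were tested. Among them, COL1A1 was at 739 ± 50.2 and PDGFRA at 489 ± 98.8 in control.

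The control libraries were examined in 2 ways. Control replicate 3 differed from the other control libraries more than they did from each other, by chi-square over its degrees of freedom (15.2 and 20.11 against 3.59). The pairs of 4 µM CDDP libraries gave 3.05 to 3.21 and those of 2 µM CDDP 7.28 to 22.07. Such a spread was therefore not particular to control. In addition, all 3 control libraries lay outside the range of the other 24 SUM1315 libraries for 1642 genes, 12.5% of those tested. The same count was 418 genes (3.18%) for 4 µM CDDP, 199 (1.52%) for olaparib and 71 (0.541%) for 2 µM CDDP. Control is the only SUM1315 group that received no drug, so the absence of drug and any other property of these 3 libraries cannot be told apart. This count was made after the values were seen and is given below with some of the gene groups. A group given without it may also hold such genes.

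With 4 µM CDDP, 951 genes rose (7.24% of those tested) and 1071 fell (8.16%), together 15.4%. Of these, 132 rose and 305 fell by at least 4-fold. The adjusted read counts of control and CDDP libraries did not overlap for 6932 genes, 52.8% of those tested. Without control replicate 3, 771 genes rose and 903 fell. When every library was scaled to the same total instead, the median log2 fold change of all genes moved from 0.00 to 0.11 and the split became 1179 rising and 860 falling genes. Of the 2022 genes that rose or fell, the control libraries lay outside the range of the other 24 libraries for 715 (35.4%) and the 4 µM CDDP libraries for 165 (8.16%).

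**Figure D1:**
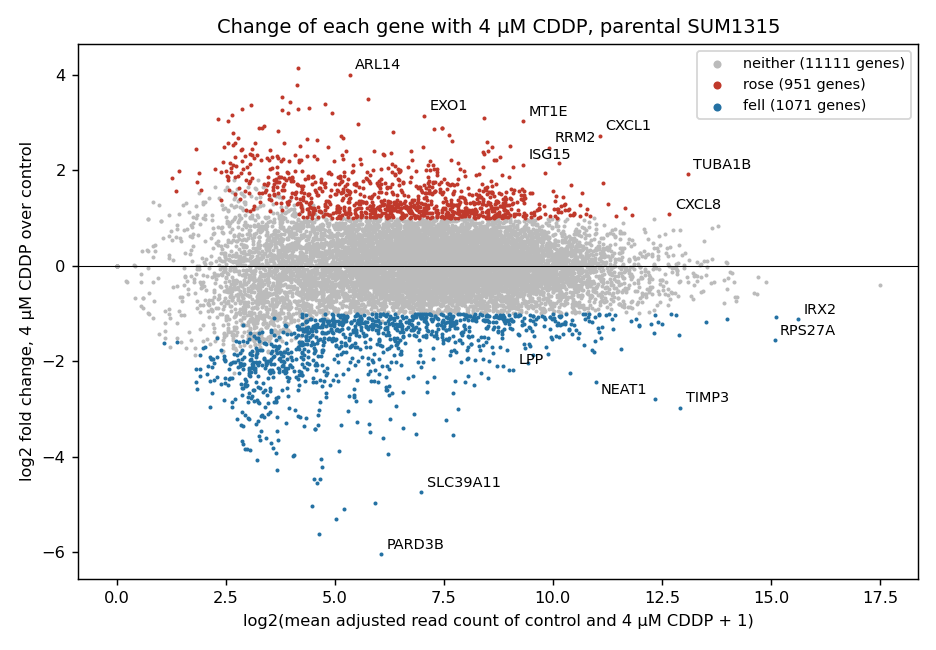
Each point is 1 of the 13133 genes tested, with the mean adjusted read count of the 6 libraries on the x axis (log2) and the log2 fold change of 4 µM CDDP over control on the y axis. The 951 genes that rose are red and the 1071 that fell are blue, and the largest decreases reach further from 0 than the largest increases.

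Of the 10 genes that fell most, 8 spanned 300 kb or more and the other 2, CCDC146 and MYOM1, spanned 173 and 181 kb. PARD3B, which encodes a cell polarity protein and spans chr2:204545475-205620162 (hg38), held 159, 127 and 111 reads in control and 1, 0 and 3 reads after CDDP. The reads were 104-fold lower with CDDP, with a 95% interval of 40.4 to 384 that covers counting error only. MAP2, a microtubule-associated protein gene, held 55, 47 and 45 reads in control and no read in any CDDP library, which is at least 51.4-fold lower taking 3 reads over the group as the floor. TENM2, an adhesion molecule gene spanning 1285 kb, went from 65, 38 and 27 reads to 1, 0 and 0. SLC39A11, a zinc transporter gene spanning 447 kb, went from 215, 217 and 299 adjusted read counts to 9.23, 9.18 and 6.07, and its log2 fold change was -4.74 ± 0.33 (SE, n = 3 per group, limma adjusted p = 1.93e-13). KCNQ1, CCDC146, TRAPPC9, MYOM1, ANK2 and LINGO2 complete the 10 largest decreases. For none of the 10 did control and CDDP libraries overlap, which the choice of these genes required. Except for TENM2 and TRAPPC9, the control libraries also lay above the other 24 SUM1315 libraries for each of these 10 genes. KCNQ1 shares its locus with an antisense RNA, and the strand setting used for counting was not given in the sources used here.

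Gene span, the distance from the first to the last annotated base in RefSeq (GRCh38.p14), was known for 12911 of the 13133 genes. Among the genes spanning 300 kb or more, 213 fell (45.5%) and 4 rose (0.855%), and their median log2 fold change was -0.97. Genes of 100 to 300 kb had a median of -0.25, with 223 falling and 38 rising of 1900. Genes of 30 to 100 kb had a median of -0.01, those of 10 to 30 kb of 0.14 and those under 10 kb of 0.12. In the shortest class, 308 rose and 180 fell of 2943. Genes of 100 kb or more made up 41.7% of the falling genes with a known span, 4.51% of the rising genes and 18.3% of all genes. Across genes, which are not independent replicates and which share the same 6 libraries, Pearson's r of the log2 fold change with log10 span was -0.23 and Spearman's rho was -0.23.

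The decrease with span was present in each CDDP library and at higher expression. Against the control mean, the median of the genes of 300 kb or more was -0.92, -0.95 and -0.94 in the 3 CDDP libraries. The 3 control libraries lay between -0.02 and 0.03, but they were compared with their own mean, so such small values are close to built in. Among genes with a control mean of at least 100, the median was -0.79 for 238 genes of 300 kb or more and 0.12 for 1453 genes under 10 kb. Choosing genes by control, the baseline of the fold change, favours decreases in both span classes. With a filter of 50 in at least 3 libraries of any group, the median of the genes of 300 kb or more was -0.74. For 56 of the 213 falling genes of 300 kb or more (26.3%), the control libraries lay outside the range of the other 24 libraries.

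Reads in genes spanning 100 kb or more made up 12.4%, 12.3% and 12.1% of the adjusted read counts in control and 10.6%, 10.5% and 10.6% after CDDP. The difference was -1.75 percentage points (two-sided exact permutation test, p = 0.10, the smallest that 3 against 3 libraries allow). For genes of 300 kb or more the share was 1.77%, 1.74% and 1.76% in control and 1.20%, 1.19% and 1.19% after CDDP, with the same exact p of 0.10. The groups did not overlap for either share. The 2 µM libraries lay between them, at 1.37%, 1.38% and 1.46% for genes of 300 kb or more.

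**Figure D2:**
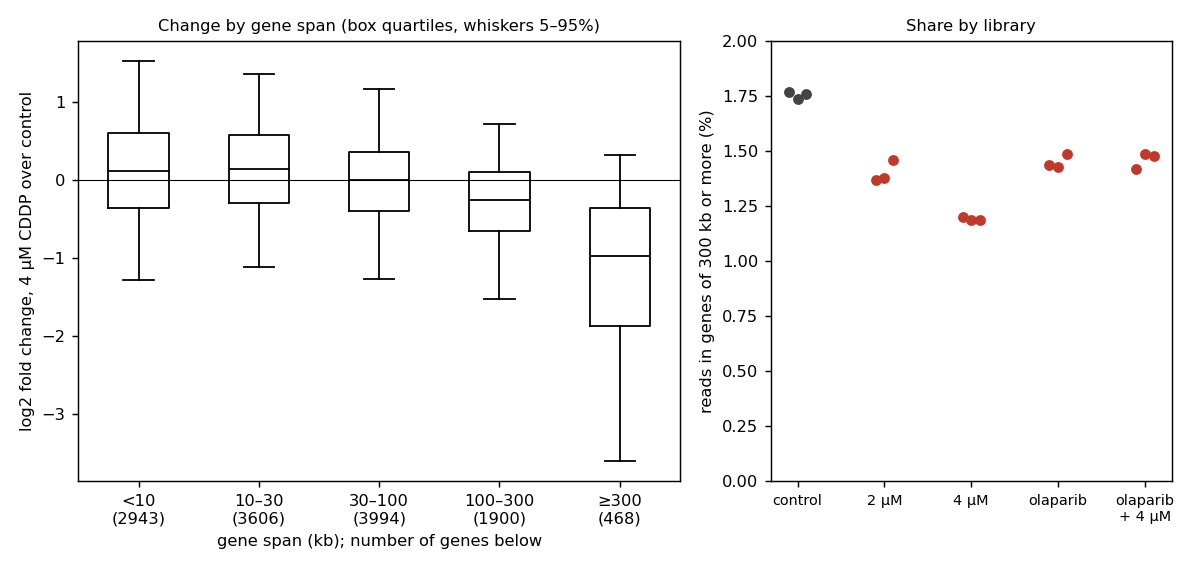
Left, log2 fold change of 4 µM CDDP over control by gene span in kb, with boxes at the quartiles, lines at the medians, whiskers at the 5th and 95th percentiles and the number of genes under each class. The median moves from 0.12 in the shortest class to -0.97 in the longest. Right, percent of adjusted read counts in genes of 300 kb or more, 1 point per library. The control libraries are the highest and the 4 µM CDDP libraries the lowest.

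Of 50 very long genes and genes at common fragile sites, which are regions prone to breaks when replication is slowed, 43 were tested. The 7 not tested were below the expression filter. Among the 43, 30 fell (69.8%, against 8.16% of all genes) and none rose (median -1.87). LPP, which encodes a focal adhesion protein, went from 935, 934 and 812 adjusted read counts to 168, 204 and 221, a log2 fold change of -2.18 ± 0.11 (limma adjusted p = 1.86e-16). BCAS3, CDH13 and EXOC4 fell with log2 fold changes of -3.11, -2.35 and -2.99. FHIT and WWOX, which lie at common fragile sites, fell with -3.29 and -1.28. Long span did not always go with a decrease. Among the 5 genes of 300 kb or more with the highest control levels, SH3KBP1 was at 3573, 3572 and 3523 in control and at 3371, 3349 and 3302 after CDDP (log2 fold change -0.09, limma adjusted p = 0.414), and it was 0.03 with equal totals. DST and DNER missed the 2-fold limit at -0.54 and -0.96, though DNER passed it with equal upper quartiles and without control replicate 1. SND1 and MACF1 fell, at -1.40 and -1.02, MACF1 not with equal totals, without control replicate 3 or without CDDP replicate 3. The 4 that rose were FMN2 (not without control replicate 3), PDE4B, PDE4D (not without CDDP replicate 1) and PRIM2, with log2 fold changes of 1.08 to 1.32. PDE4B and PDE4D encode phosphodiesterases and PRIM2 a primase subunit, and these 4 were named after their values were seen.

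Of 32 targets and feedback genes, all tested, 11 rose and 1 fell, against 7.24% rising among all genes, and the median log2 fold change was 0.63. CXCL1, a neutrophil chemokine gene, went from 604, 702 and 423 adjusted read counts to 3602, 4045 and 3582, a log2 fold change of 2.73 ± 0.11 (limma adjusted p = 2.21e-19). Every CDDP library was above every control library. CXCL3 went from 1273, 1118 and 803 to 3469, 3644 and 3345. BIRC3, an inhibitor of apoptosis that is itself an NF-κB target, went from 554, 525 and 639 to 1691, 1445 and 1627, a log2 fold change of 1.47 ± 0.13 (limma adjusted p = 2.47e-11). TNFAIP3, which encodes a negative regulator of NF-κB, rose with 1.26. The cytokine gene IL6 rose from 429 ± 200 to 1835 ± 460 (SD, n = 3), and the signalling adaptor TRAF1 and the chemokine CCL20 rose with log2 fold changes of 2.06 and 1.98. CXCL8 was at 4340, 4702 and 3536 in control and at 7617, 9797 and 9185 after CDDP, and its log2 fold change of 1.08 passed the 2-fold limit except without control replicate 3. TNF was near absent in control at 0.684 ± 1.18 and reached 14.3 ± 2.81, and CSF2 went from 5.44, 1.08 and 6.18 to 33.0, 62.6 and 49.5. VCAM1, an adhesion receptor, fell. NFKBIA, SOD2 and IER3 had log2 fold changes of -0.43, 0.00 and -0.57 and did not pass the fold limit, nor did the cytokine and chemokine genes IL1A, IL1B, CCL2, CXCL2 and LTB at 0.15, 0.17, 0.77, 0.91 and 0.73. For none of the 12 called members did the control libraries lie outside the range of the other 24, and for 6 of the 12 the 4 µM CDDP libraries did.

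The promoters of the 4 called NF-κB genes with the smallest p and of CXCL8 are printed to show where a loose form of the factor's binding pattern falls. Each run is the 250 bases before the start that the RefSeq promoter table gives (GRCh38.p14), 5′ to 3′ on the gene's strand. For TNFAIP3 that start lies downstream of the first annotated base of the gene, 137866349, so its run is inside the annotated span. Capitals mark the κB pattern, which is GGG, any 5 bases and CC on either strand, and in CXCL8 also the AP-1 site, TGACTCA or TGAGTCA.
CXCL1, chr4:73869143-73869392, plus strand: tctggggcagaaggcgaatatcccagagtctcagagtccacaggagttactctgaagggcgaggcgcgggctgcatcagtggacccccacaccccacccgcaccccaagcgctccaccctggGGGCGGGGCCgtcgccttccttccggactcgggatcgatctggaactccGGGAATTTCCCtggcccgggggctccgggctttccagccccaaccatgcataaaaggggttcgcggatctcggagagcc
CXCL3, chr4:74038690-74038939, minus strand: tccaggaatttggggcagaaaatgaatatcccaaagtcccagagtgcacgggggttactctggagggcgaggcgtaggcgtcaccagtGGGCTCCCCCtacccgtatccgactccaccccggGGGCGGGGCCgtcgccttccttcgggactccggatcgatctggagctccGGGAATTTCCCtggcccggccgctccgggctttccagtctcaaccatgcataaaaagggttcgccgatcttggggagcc
TNFAIP3, chr6:137867009-137867258, plus strand: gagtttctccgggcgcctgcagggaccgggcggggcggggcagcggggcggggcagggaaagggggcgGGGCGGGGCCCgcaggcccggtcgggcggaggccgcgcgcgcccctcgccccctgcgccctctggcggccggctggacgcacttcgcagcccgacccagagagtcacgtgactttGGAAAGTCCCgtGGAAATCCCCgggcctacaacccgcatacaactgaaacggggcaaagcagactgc
BIRC3, chr11:102317234-102317483, plus strand: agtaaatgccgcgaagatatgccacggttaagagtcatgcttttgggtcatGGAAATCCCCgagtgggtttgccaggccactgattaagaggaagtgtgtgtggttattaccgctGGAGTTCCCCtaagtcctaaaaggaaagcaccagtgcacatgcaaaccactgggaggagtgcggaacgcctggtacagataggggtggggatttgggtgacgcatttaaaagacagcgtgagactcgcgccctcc
CXCL8, chr4:73740319-73740568, plus strand: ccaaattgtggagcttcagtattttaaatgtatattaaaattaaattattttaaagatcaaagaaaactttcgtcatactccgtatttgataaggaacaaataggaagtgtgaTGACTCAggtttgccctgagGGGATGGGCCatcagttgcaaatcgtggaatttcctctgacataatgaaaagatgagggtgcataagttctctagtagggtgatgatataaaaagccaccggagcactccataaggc
The κB pattern was found before all 11 rising genes of the list, before 14 of the other 17 members with a promoter entry and before 57.8% of all 27305 genes with an entry. It also matches GC-rich runs and can miss binding sites that depart from these letters, and holding it did not set these genes apart in the list. The AP-1 site stood before 1 of the 11 (5.19% of all genes), and the cyclic AMP response element, TGACGTCA, before none (2.03% of all genes). CXCL1 and CXCL3 are close copies, and reads of such genes may be shared between them.

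Immediate early genes, which encode short-lived transcription factors, moved in both directions. Of 26 genes, all tested, 7 rose (26.9%) and 5 fell (19.2%), against 7.24% and 8.16% of all genes. EGR1 went from 3159, 3463 and 2664 adjusted read counts to 1147, 1268 and 1119 (log2 fold change -1.39 ± 0.14, limma adjusted p = 6.27e-10), and SRF, the serum response factor, fell with -1.24. IER2 and JUNB fell with -1.04 and -1.03, and both calls were lost with equal totals. The call of IER2 was also lost without control replicate 3, and that of JUNB without control replicate 1 or 2. EGR3 fell from 183 to 86.4 on average (-1.08). NR4A1, KLF4, KLF10, FOSL2 and ATF3 rose with log2 fold changes of 1.88, 1.64, 1.49, 1.24 and 1.14, and NR4A3 and BTG2 with 1.85 and 1.01. NR4A3 was low, at 6.98 ± 8.46 in control and 19.8 on average after CDDP, and its groups overlapped. JUN was at 914 in control and 1064 after CDDP on average (0.22) and did not pass. The list held 7 rising and 2 falling genes with equal totals, 4 and 3 without control replicate 3, and with the edgeR quasi-likelihood test 5 and 5. For 3 of its 12 called members the control libraries lay above the other 24. Of 6 rising genes with a promoter entry, 4 held the κB pattern and none the AP-1 site or the cyclic AMP response element, and KLF10 had no entry. The κB pattern also stood before 13 of the 15 other members with an entry and before 57.8% of all genes. Among 20 feedback genes of the MAPK pathway 2 rose and 1 fell (5.00%, against 8.16% of all genes). ERRFI1, an inhibitor of the EGF receptor, fell with -1.44, and the phosphatase genes DUSP1 and DUSP10 rose with 1.29 and 1.33. The EGF receptor ligand AREG went from 605, 694 and 472 to 145, 165 and 128 (SE of the log2 fold change 0.16, limma adjusted p = 4.02e-12). The receptor gene ERBB4, spanning 1163 kb, had 14, 16 and 11 reads in control and none after CDDP, at least 14.3-fold lower. In every other SUM1315 library ERBB4 was at most 9.50 adjusted read counts. It therefore passed the filter only through control and could enter only as a decrease. Of the 28 activin and TGF-β pathway genes, 25 were tested. Of these, 1 rose and 3 fell, against 7.24% and 8.16% of all genes (median -0.14). INHBA, the activin subunit gene, was the 1 that rose, from 239, 288 and 217 to 790, 691 and 690, and the inhibitors of differentiation ID1 (not without control replicate 2), ID2 (not with equal totals or a pseudocount of 5) and ID4 fell. ID4 held 15, 11 and 11 reads in control and 1, 0 and 1 after CDDP. Like ERBB4, it passed the filter only through control and could enter only as a decrease.

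**Figure D3:**
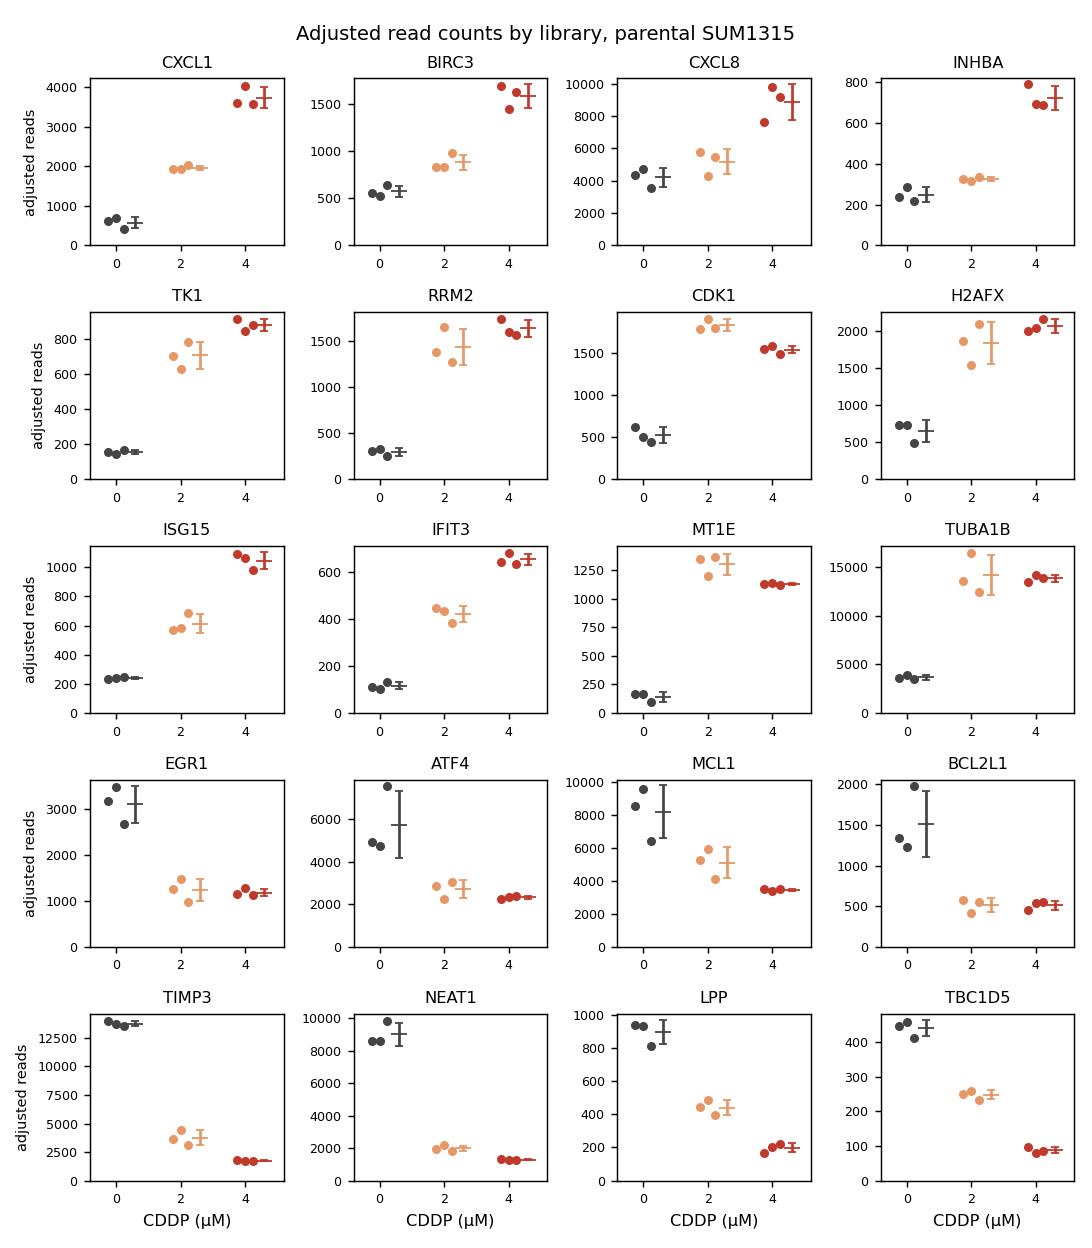
Adjusted read counts of 20 genes in the 3 libraries each at 0, 2 and 4 µM CDDP (points), with the mean and SD (bars) beside them and every y axis starting at 0. CXCL1, BIRC3, ISG15, IFIT3 and TK1 have their highest mean at 4 µM, while CDK1, MT1E and TUBA1B have no higher mean at 4 µM than at 2 µM. All of these genes have a higher mean at 2 µM than in control.

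Genes of DNA replication made up the list with the highest share of increases. Of 40 replication and E2F target genes, 39 were tested, 28 rose (71.8%, against 7.24% of all genes) and none fell (median 1.26). TK1, which makes thymidine monophosphate, went from 155, 145 and 164 adjusted read counts to 916, 848 and 882 (log2 fold change 2.50 ± 0.10, limma adjusted p = 1.49e-19). RRM2, a subunit of ribonucleotide reductase, went from 303, 328 and 249 to 1732, 1597 and 1565. The replication clamp PCNA and the licensing factor CDC6 rose with 1.94 and 1.58, and CDC45, part of the replicative helicase, rose from 41.3, 50.6 and 32.2 to 281, 302 and 348. Of 40 genes of mitosis and the spindle, 17 rose (42.5%, against 7.24% of all genes) and none fell (median 0.92). Those that rose included CDK1, the mitotic kinase, with 1.57, MAD2L1 with 2.08, TTK and KIF2C. Without control replicate 3, 11 of these 40 rose. TOP2A, the most abundant of them, was at 9913 in control and 10427 after CDDP on average (0.09) and did not pass. For 13 of the 28 called replication genes and 12 of the 17 called mitotic genes, the control libraries lay outside the range of the other 24 libraries. Of 47 clustered histone genes, 20 were tested and 3 rose (15.0%, against 7.24% of all genes), all at low counts. HIST1H4H was lost in 10 of the 16 alternatives that gave it a value and HIST1H2BD in 6 of 17.

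Genes of homologous recombination and the Fanconi anemia pathway rose in part. Of 36 genes, all tested, 15 rose (41.7%) and 1 fell (2.78%), against 7.24% and 8.16% of all genes (median 0.75). EXO1, an exonuclease that resects broken ends, went from 36.3, 29.0 and 15.7 adjusted read counts to 244, 235 and 224 (log2 fold change 3.15 ± 0.21, limma adjusted p = 6.06e-14). UBE2T, the ubiquitin-conjugating enzyme of the Fanconi pathway, rose with 2.42, and its substrate FANCD2 with 1.30. BRCA1 went from 201, 202 and 279 to 674, 647 and 621 (1.52 ± 0.13, limma adjusted p = 3.92e-11). The 1 that fell is also among the very long genes. RAD50, the most abundant member, was at 1802 and 1678 on average and did not pass. For 7 of the 16 called members the control libraries lay outside the range of the other 24.

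Of 25 nucleotide excision repair genes, 22 were tested, 3 rose (13.6%) and 1 fell (4.55%), against 7.24% and 8.16% of all genes. RPA3, LIG1 and ERCC8 rose, the last not without control replicate 3 or CDDP replicate 2. UVSSA, a factor of transcription-coupled repair, fell with -1.21. Of 14 translesion synthesis genes, PCNA, POLQ and UBE2A rose (21.4%, against 7.24% of all genes). POLQ did not pass without CDDP replicate 2, and UBE2A not in edgeR, in DESeq2, with equal upper quartiles or without control replicate 3. POLH, which encodes polymerase η, was at 162, 149 and 207 in control and 175, 162 and 193 after CDDP (0.04, limma adjusted p = 0.844), and its sign turned under 3 alternatives. Of 24 checkpoint genes 5 rose (20.8%, against 7.24% of all genes) and none fell. H2AFX, the gene of the histone H2AX, went from 734, 735 and 480 to 1990, 2032 and 2162 (1.69 ± 0.12). CLSPN, CDC25A and CHEK1 rose with 2.22, 1.63 and 1.27. For 3 of the 5 called checkpoint genes and 2 of the 3 called translesion genes, the control libraries lay below the other 24. PARP1, the main target of olaparib, was at 1082, 1037 and 1356 and then at 1888, 1766 and 1804, which did not reach the 2-fold limit (0.66, limma adjusted p = 2.15e-07). PARP2 rose with 1.08 and PARP11 fell with -1.02, the latter call lost in 5 of 17 alternatives, among them equal totals and the fits without control replicate 1, control replicate 3 or CDDP replicate 1.

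CDKN1A, the cell cycle inhibitor p21, went from 656, 604 and 653 to 1500, 1368 and 1504 (1.19 ± 0.08, limma adjusted p = 2.25e-13), and the death activator PMAIP1 and the death receptor gene FAS rose with 1.17 and 1.10, FAS not without control replicate 2. PHLDA3 and ZMAT3 fell with -1.08 and -1.16, PHLDA3 not with equal totals or without control replicate 3. Among 17 tested members of the BCL2 family, 3 inhibitors of apoptosis fell (17.6%, against 8.16% of all genes). BCL2L1 went from 1338, 1230 and 1977 to 448, 541 and 551 (-1.53 ± 0.14, limma adjusted p = 2.19e-10), MCL1 from 8521, 9594 and 6430 to 3483, 3365 and 3517, and BCL2 from 46.7, 46.6 and 51.7 to 18.5, 12.6 and 26.0. For BCL2L1 and MCL1, though not for BCL2, the control libraries lay above the other 24 SUM1315 libraries. With olaparib alone, BCL2L1, MCL1 and BCL2 stood at 476 ± 18.9, 3809 ± 444 and 34.0 ± 11.5. BAX and BBC3, which promote death, had log2 fold changes of -0.21 and -0.37 and did not pass. Of 25 tested TNF receptor and ligand genes 5 rose and 3 fell, against 7.24% and 8.16% of all genes (median 0.03). The decoy receptor gene TNFRSF10D fell by 1.77 on the log2 scale. TNFRSF9 rose with 1.32 and CASP8 with 1.36, the latter not without control replicate 3.

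Interferon-stimulated genes, which are switched on by antiviral signalling, rose in 16 of 35 (45.7%, against 7.24% of all genes) and fell in none (median 0.84). IFIT3 went from 112, 104 and 134 adjusted read counts to 644, 682 and 637 (2.49 ± 0.15, limma adjusted p = 6.43e-15), IFIT2 from 53.8, 57.9 and 56.9 to 405, 345 and 308, and ISG15 from 235, 237 and 246 to 1090, 1062 and 978. DDX58, which encodes the RNA sensor RIG-I, rose with 1.33. CXCL10 and IFITM3 had log2 fold changes of -0.47 and -0.33 and did not pass the fold limit. For 4 of the 16 the control libraries, and for 5 the 4 µM CDDP libraries, lay outside the range of all other SUM1315 libraries.

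The ATF4 stress response list had 3 falling genes among 24 (12.5%, against 8.16% of all genes), no rising gene and a median of -0.36. ATF4 itself went from 4958, 4729 and 7591 to 2259, 2363 and 2379 (-1.27 ± 0.12), and ASNS, the asparagine synthetase, fell with -1.18. CHAC1 fell with -1.07, a call that was lost with equal totals and without CDDP replicate 3. For all 3 the control libraries were above the other 24. Of 23 tested cholesterol synthesis genes 8 rose (34.8%, against 7.24% of all genes) and none fell (median 0.71). Those that rose included FDFT1, MSMO1, DHCR7 and IDI1 with log2 fold changes of 1.13, 1.16, 1.55 and 1.44. For 6 of the 8 the control libraries were below the other 24. Among 19 tested NRF2 targets and metallothioneins 2 rose and 2 fell, 10.5% each against 7.24% and 8.16% of all genes. MT1E, a metal-binding protein gene, went from 166, 167 and 92.4 to 1130, 1140 and 1122 (3.04 ± 0.13, limma adjusted p = 5.65e-19). Its relatives MT2A and MT1X had log2 fold changes of 0.84 and 0.01, and the metallothioneins are close copies whose reads may be shared. TXN, thioredoxin, rose with 1.52, and HMOX1 fell with -1.13, HMOX1 not without control replicate 3. For 2 of the 4 called members of this list the control libraries were below the other 24. Of 28 tested hypoxia genes 3 rose (ALDOC, ADM and CA9) and 2 fell (NDRG1 and EDN1), 10.7% and 7.14% against 7.24% and 8.16% of all genes. EDN1 did not pass with equal totals or without control replicate 3, and NDRG1 not with equal totals or without control replicate 1, control replicate 2 or CDDP replicate 3. Of 18 heat shock genes 2 rose (11.1%, against 7.24% of all genes), HSPE1 with 1.18 and HSPB8 with 1.34. HSPB8 did not pass without control replicate 3. None of 62 genes of cytosolic ribosomal proteins in the list rose or fell (median -0.10, turning to 0.02 with equal totals). RPL27A and RPS27A, which fell, are described below and are not on it. At a mean of 28687 in control and 24339 after CDDP, RPLP1 had a log2 fold change of -0.23. The 13 mitochondrially encoded genes had no row and were not analysed here. Of the epithelial keratins, KRT17 and KRT14 fell with -1.24 and -1.55, KRT14 not without CDDP replicate 3, and KRT8 rose with 1.47. None of 8 mesenchymal, 3 tested fibroblast and 2 tested hormone and HER2 receptor markers rose or fell.

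**Figure D4:**
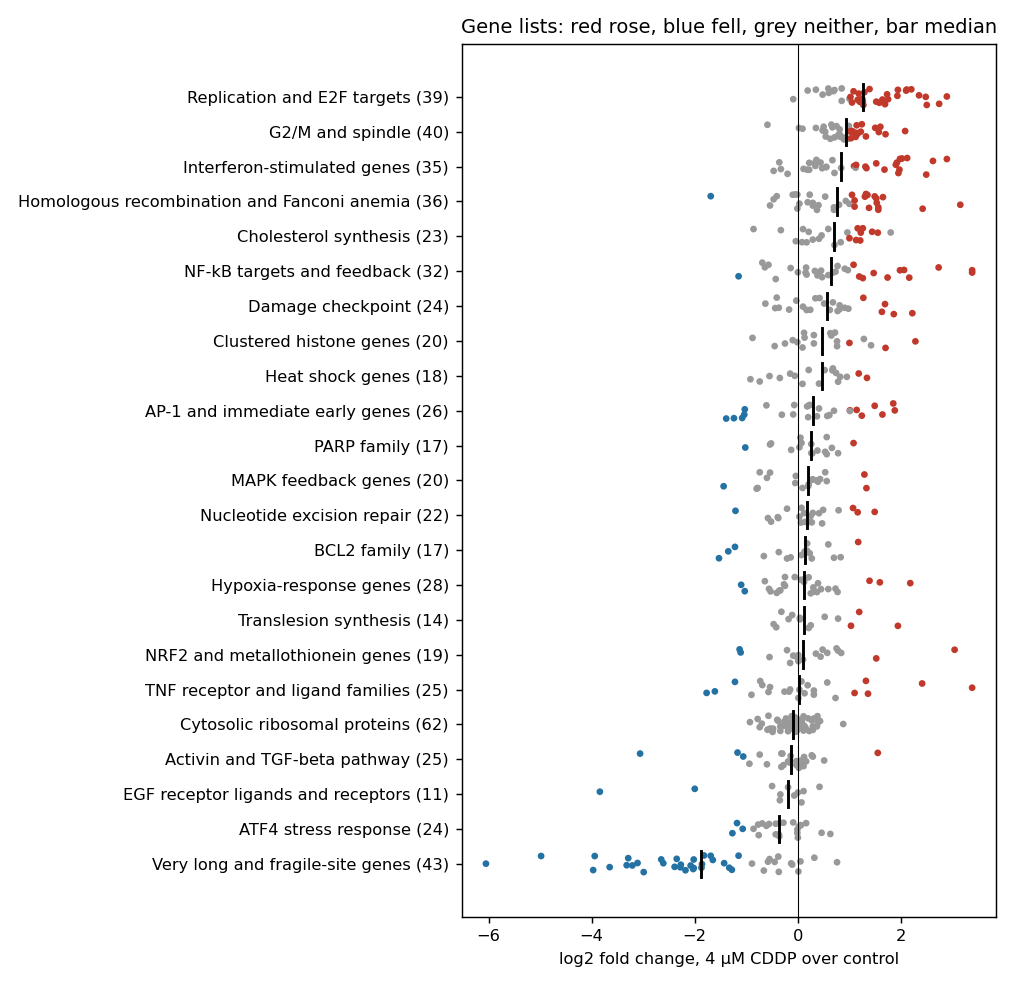
Log2 fold change of 4 µM CDDP over control for each tested member of 23 gene lists, ordered by the list's median (black bar), with the number tested in brackets. Red points rose and blue points fell; the replication list lies furthest to the right at a median of 1.26 and the very long genes furthest to the left at -1.87.

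Among genes with a mean of at least 20 and no overlap between the groups, the 10 largest increases were in ARL14, FAM83A, ESRRA, ACOX2, IL7R and LYPD3 and in the list members CSF2, EXO1, MT1E and CDC45. ARL14, a small GTPase gene, went from 5.46, 2.10 and 4.14 to 88.3, 60.0 and 77.0, and IL7R, a cytokine receptor gene, from 87.6, 84.7 and 46.8 to 586, 574 and 667. The most abundant rising genes were TUBA1B, CXCL8, ATP5B, SMC4 and CALM2. TUBA1B, an α-tubulin gene, went from 3596, 3894 and 3447 to 13480, 14190 and 13847 (1.93 ± 0.09), ATP5B did not pass without control replicate 3, and CALM2 did not in edgeR, DESeq2, with equal upper quartiles or without control replicate 3. The most abundant falling genes were IRX2, RPL27A, RPS27A, FTH1 and ACTG1. Control libraries of some of these varied widely, with ACTG1 at 18118, 22434 and 9222 in control and 6920, 6885 and 6905 after 4 µM CDDP. The 2 µM libraries varied in the same order, with ACTG1 at 17342, 24985 and 9149. Without control replicate 3 the calls of IRX2 and RPL27A were lost, without control replicate 2 those of FTH1 and ACTG1, and with equal totals those of IRX2, RPL27A and FTH1. RPS27A, which encodes a fusion of ubiquitin with a ribosomal protein, went from 44740, 42321 and 69334 to 17406, 17055 and 17310 (-1.56 ± 0.14) and passed in every alternative. Several of these abundant genes have processed copies elsewhere in the genome, so their counts are less certain.

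The comparison of 4 µM with 2 µM CDDP asks what the higher dose added. It gave 34 rising genes (0.259% of those tested) and 162 falling genes (1.23%), and shares the 4 µM libraries with the comparison above. Without replicate 2 of 2 µM CDDP the counts were 13 and 92, without its replicate 3 they were 83 and 242, and without replicate 3 of 4 µM CDDP 18 genes rose. Of the falling genes, 67 spanned 300 kb or more and 33 spanned 100 to 300 kb. The median log2 fold change was -0.50 for genes of 300 kb or more and 0.02 for genes under 10 kb. TIMP3, which encodes an inhibitor of metalloproteinases, was at 13993, 13683 and 13531 adjusted read counts in control, at 3691, 4473 and 3159 with 2 µM and at 1778, 1742 and 1721 with 4 µM, and the 4 µM to 2 µM difference was -1.10 ± 0.09 (limma adjusted p = 4.00e-10), under the 2-fold limit without replicate 2 of 2 µM CDDP. TBC1D5, a regulator of endosomal traffic spanning 585 kb, stood at 251, 259 and 233 with 2 µM and at 97.5, 80.3 and 85.7 with 4 µM (-1.49 ± 0.12). LPP and RBMS3 fell with -1.16 and -1.55, and the non-coding RNA MIR205HG stayed just under the limit at -0.99, passing it without replicate 3 of either dose.

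Outside the very long genes, 8 list members passed between the 2 doses. Of the NF-κB list, CSF2, TNF, IL6 and TRAF1 rose from 2 to 4 µM and VCAM1 fell, and CXCL1 went from 1964 ± 54.8 to 3743 ± 262, just short of the limit (log2 fold change 0.93, limma adjusted p = 8.65e-07). INHBA rose with 1.15, from 325 ± 9.90 to 724 ± 57.3, ID1 fell with -1.02 and the death receptor gene TNFRSF10A rose with 1.18. In the very long gene list 14 of 43 fell. No member of the replication, mitosis, recombination, checkpoint or interferon lists was called between the doses, with medians of 0.22, -0.15, 0.10, 0.11 and 0.22. Some members, ISG15 (0.77) and PCNA (0.60) among them, had an adjusted p of at most 0.05 but missed the 2-fold limit. Such smaller changes were not counted by direction. TK1 stood at 707 ± 78.1 and 882 ± 34.0 and CDK1 at 1835 with 2 µM and 1541 with 4 µM. Outside these lists, MT1E stood at 1304 ± 91.7 and 1131 ± 9.09.

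The last comparison asked whether the change with 4 µM CDDP differed between cells without and with olaparib, as a difference of 2 differences. It passed for 2827 genes, 21.5% of those tested, with no fold limit. Of the genes of 300 kb or more, 175 had a more negative change without olaparib and 3 a more positive one, and their median change was -0.97 without and -0.16 with olaparib. Their share of adjusted read counts was 1.44%, 1.43% and 1.49% with olaparib alone and 1.42%, 1.49% and 1.48% with both drugs, so olaparib alone was already below control. In the NF-κB list 11 of 32 passed, and the list's median change was 0.63 without and 0.62 with olaparib. BIRC3 went from 448 ± 43.2 with olaparib to 1279 ± 27.6 with both drugs, a difference from the change without olaparib of -0.04. In the mitotic list 37 of 40 passed, with medians of 0.92 without and -0.12 with olaparib.

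The 5 genes with the smallest p differed in where olaparib alone stood. TIMP3 was at 3260 ± 206 with olaparib and 2071 ± 57.5 with both drugs, against 13736 ± 235 in control and 1747 ± 28.9 with CDDP. MT1E was at 1607 ± 61.5 with olaparib and 1360 ± 95.1 with both, above its 142 ± 42.9 in control. TUBA1B stood at 11302 ± 594 and 12486 ± 630. RCAN1, an inhibitor of calcineurin, was at 479 ± 50.3 and 501 ± 10.7, below both control (3066 ± 215) and CDDP (881 ± 54.5), and the nuclear RNA NEAT1 at 4181 ± 149 and 2180 ± 189 against 9010 ± 722 in control. For all 5 the control libraries lay outside the range of the other 24 SUM1315 libraries.

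**Figure D5:**
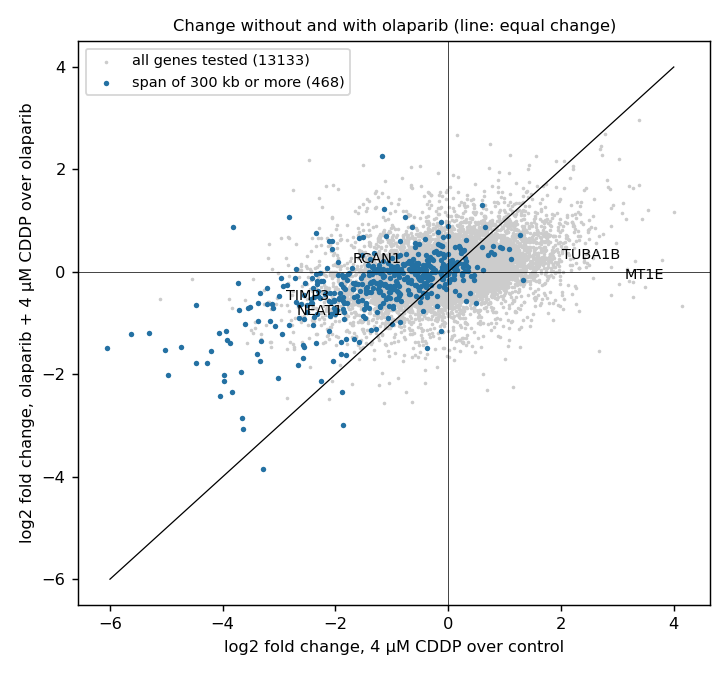
Log2 fold change of 4 µM CDDP over control (x axis) against that of olaparib and 4 µM CDDP over olaparib (y axis) for the 13133 genes tested, with genes of 300 kb or more in blue and the line of equal change. The blue points reach far to the left but less far down, with medians of -0.97 on the x axis and -0.16 on the y axis.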

How the data were processed

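SUM1315 libraries were prepared by the authors with a QuantSeq 3′ mRNA kit (FWD) and sequenced on an Illumina HiSeq 2500 in multiplexed batches whose members are not given in the sources used here. Per the submitters' processing notes, CASAVA 1.8.2, FastQC, STAR, HTSeq and edgeR were used with hg38; other versions and the roles were not taken from them. The deposited values are a signal, edgeR pseudo-counts that the authors scaled to a common library size of 5585170; they were called adjusted read counts. The forward calculation gave back all 1483380 values (100%, relative tolerance 1e-07) from whole reads, so depth is known. Tables of the authors' own comparisons (fold changes and p-values) were not used. GEO's protocol text gives drug doses in mM, while the titles and the methods give µM, which is used here.

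The filter kept genes that reached 10 in 3 or more of the 27 SUM1315 libraries. limma 3.58.1 (R 4.3.3) with an intensity trend was fitted to log2(value + 1) in all 9 groups, so fold changes are on that scale and understate the change of low genes. Genes with an adjusted p of at most 0.05 and a fold change of at least 2 were called; the interaction had no fold limit. The fit was tested on simulated data. Alternatives used edgeR 4.0.16, DESeq2 1.42.0, other scalings, pseudocounts and filters, a replicate block, and fits without each library. For genes with at most 3 reads in every library of a group, a ratio of summed reads with an exact 95% interval is given; intervals and floors cover counting error only. Gene spans came from RefSeq (GRCh38.p14, the hg38 build), 12334 by symbol and 577 by older symbol.

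Named genes were the 10 largest increases and decreases with a mean of at least 20 and no overlap, the 5 most abundant in each direction, up to 4 with the smallest p per list (otherwise the 2 most abundant), genes the study measured, the 5 smallest p of the other comparisons and the 5 most abundant long genes; other list members were named after their values were seen. The 30 lists (721 genes), the members and the rule were chosen with earlier results of these data known. Results for some genes and 1 of the lists are not reported here.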

Additional observations from a re-analysis of the deposited data

Results flagged for a closer look

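The change with 4 µM CDDP differed between cells without and with olaparib for 2827 genes, by the interaction term in limma. For the 5 with the smallest p, the change without olaparib minus the change with it was -2.32 for TIMP3, -1.85 for NEAT1, -1.87 for RCAN1, 3.28 for MT1E and 1.78 for TUBA1B on the log2 scale. In all 5, the control libraries lay outside the range of the other 24 SUM1315 libraries, and the part of that separation in the difference was not tested.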

How the results depend on the processing

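For 4 µM CDDP against control, 3103 genes were called without the filter (2132 of them fell) and 630 fell with a filter of 50. With no fold limit 5771 passed (2916 rose and 2855 fell), and at an absolute log2 fold change of 2 or more 437 (132 and 305). Without each library in turn the total was 1674 to 2066, the lowest without control replicate 3. On the recovered whole reads, edgeR called 899 rising and 1089 falling genes and DESeq2 905 and 1143. Rising genes made up 47.0% of the calls, 57.8% with equal totals, 53.5% with the filter of 50 and 31.3% without a filter. For 4 µM against 2 µM, no fold limit gave 1375 genes (447 rose and 928 fell) and the limit of 2 gave 41 (4 and 37), while 22 rose with the filter of 50 and 59 with equal totals. Leaving out 1 library gave 105 to 325 genes, with 13 to 83 rising and 92 to 242 falling. The interaction passed for 1060 genes at an absolute log2 difference of 1 or more. The median of the genes of 300 kb or more was -0.97, and it was -1.0 with DESeq2, -0.99 with edgeR and DESeq2 size factors, -0.91 in a fit of the compared libraries only, -1.01 and -0.85 with pseudocounts of 0.5 and 5, -0.74 with the filter of 50, -0.86 with equal totals, -1.03 with equal upper quartiles and -1.01 to -0.94 without each library. The read share fell by 0.563 percentage points with a limit of 300 kb in place of 100 kb. Signs turned only for genes that were not called: VIM (0.09) and SH3KBP1 (0.03) with equal totals, PDGFRA (-0.02) and POLH (-0.01) with equal upper quartiles, and both without single libraries (PDGFRA -0.14 to 0.15, POLH -0.05 to 0.18). The cause of these changes was not tested. Of 125 called named genes, 97 kept their call in each of up to 17 alternatives that gave them a value. Replicate numbers did not pair the control and 4 µM libraries (correlations of deviations 0.031, 0.028 and -0.005). Between control and 2 µM libraries these correlations were -0.01, 0.142 and 0.156 for replicates 1, 2 and 3. With the replicate number as a block 955 genes rose and 1068 fell, with 2774 for the interaction.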
